A study of Mus musculus with 12 samples.

Results

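NIH-3T3, an immortalised fibroblast line established from mouse embryos, received TGF-β1 at 10 ng/mL (TGFb1) or PBS (Con) for 24 h, and gene expression was measured by RNA sequencing. The samples were taken by their labels. They were the 3 TGFb1 and the 3 Con libraries, 6 of the 12 libraries of the series, and all genes that passed a low-count filter, 11763 of the 16300 genes in the deposited table. The other 6 libraries came from cells given the secreted glycoprotein stanniocalcin-1 (STC-1) at 100 ng/mL, alone (STC1) or with TGF-β1 at the same dose (TS), for the same time. The labels name no altered allele or other agent in any group. The series text calls the 3 samples of a group biological replicates without saying whether they were separately grown cultures, so the p-values measure the spread between these libraries, which may be partly technical. All libraries came from 1 cell line at 1 time.

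TGF-β1 is secreted in a latent complex held in the matrix by latent TGF-β binding proteins and is freed by integrins and proteases. The active ligand binds the type II receptor, which activates the type I receptor, and this phosphorylates SMAD2 and SMAD3, which enter the nucleus with SMAD4. Among the genes induced in this way are inhibitors of the pathway itself, such as Smad7 and Skil. In fibroblasts TGF-β1 is the textbook driver of collagen, fibronectin and elastic fibre synthesis and of the contractile myofibroblast state marked by α-smooth muscle actin (Acta2).

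The 6 libraries held between 17063025 and 18521810 expected counts. Levels are given as CPM, counts scaled to a common library size with TMM, which are not corrected for transcript length. They are compared within a gene, apart from sums over lists and ranks of gains and losses in CPM. Of 12 fibroblast marker genes 11 were above 1 CPM, and their sum was between 14976 and 15671 CPM with PBS and between 14178 and 14571 CPM with TGF-β1, with 3 of the 12 called. Macrophage markers summed to between 8.27 and 9.82 CPM with PBS and between 9.7 and 9.82 CPM with TGF-β1, with Adgre1 at 0. Epithelial, endothelial and skeletal muscle markers each summed to at most 1.34 CPM in any library, with the endothelial gene Kdr at 0. Adipocyte markers summed to between 34.3 and 36.9 CPM, of which Lpl held 29.6 CPM on average, with Adipoq at 0. The part of these other cell types' markers in any result was not tested. In bulk RNA, fewer cells of a kind and less RNA per cell cannot be told apart.

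The treatment groups lay apart on the first principal component of the 6 libraries, which held 42.9% of the variance of 6154 abundant genes. PBS libraries 1, 2 and 3 lay at -4.34, -2.14 and -1.34, and TGF-β1 libraries 1, 2 and 3 at 1.98, 2.64 and 3.21. The libraries also differed in a property of the transcripts. Across 6118 abundant genes, a library's deviation from the 6-library mean had a Spearman correlation with transcript length of 0.226, 0.279 and 0.0485 in the 3 PBS libraries and -0.274, -0.191 and -0.135 in the 3 TGF-β1 libraries, so the groups did not overlap in this measure. Its correlation with GC content was 0.404, -0.0876 and -0.0156 with PBS and 0.0378, -0.145 and -0.267 with TGF-β1, and PBS library 1 stood apart. The plot of these correlations by library shows both. Genes are not independent points, and the part of transcript length and GC content in the group difference was not tested. For that reason the calls named below were also read with the trend with length and GC removed from every library.

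**Figure D1:**
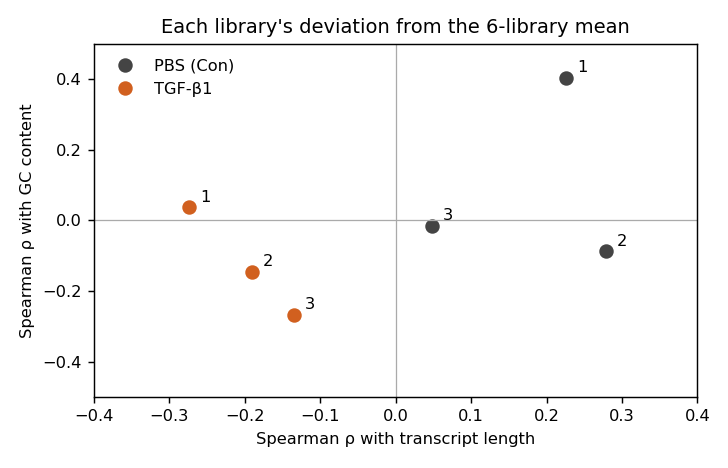
Each point is 1 library. The horizontal axis is the Spearman correlation, over 6118 abundant genes, between transcript length and the gene's deviation from the mean of the 6 libraries, and the vertical axis is the same correlation with GC content. The 3 PBS libraries lie between 0.0485 and 0.279 on the horizontal axis and the 3 TGF-β1 libraries between -0.274 and -0.135; PBS library 1 is highest on the vertical axis, at 0.404.

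Few genes differed between TGF-β1 and PBS, and by small amounts. Of 11763 genes tested with edgeR's quasi-likelihood test, 469 (3.99%) had an adjusted p under 0.05 and are called here; 224 rose (1.9% of those tested) and 245 fell (2.08%). The median fold of a called gene was 1.1 in either direction, against a median absolute log2 change of 0.058 over all genes tested. A change above 1.2-fold was seen in 38 called genes and one above 1.5-fold in 3. Those 3, named after their values were seen, were all near the detection limit. Grin3b, a glutamate receptor subunit, stood at 1.07 ± 0.322 CPM with PBS and 0.312 ± 0.147 CPM with TGF-β1. The peptide transporter gene Slc15a2 stood at 2.52 ± 0.292 CPM with PBS and 1.56 ± 0.276 CPM with TGF-β1. The predicted gene Gm3696 stood at 0.976 ± 0.674 CPM with PBS and 2.13 ± 0.417 CPM with TGF-β1. The CPM values of the groups did not overlap for 454 of the 469 called genes, and for 2505 of all genes tested (21.3%).

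How many genes were called depended on single libraries. Leaving out PBS library 1 left 143 calls (76 rose, 67 fell), leaving out TGF-β1 library 2 left 232 and leaving out TGF-β1 library 3 left 205. Without PBS library 2, PBS library 3 or TGF-β1 library 1 there were 339, 544 and 431 calls. In all 6 of these fits and in the full fit 87 genes were called, 0.74% of those tested, of which 45 rose and 42 fell; they are called stable here. The balance of the directions depended on the scaling. With TMM 47.8% of calls were rises, and with plain library sizes 35.8% were (191 rose, 342 fell), while the median log2 change of all genes moved only from -0.0022 to -0.011. With the length and GC trend removed, 402 genes were called (3.42%), and 299 of the 469 remained called. Genes that rose had a median transcript length of 2572 bases and genes that fell one of 5016, against 3189 over all genes.

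The cells given STC-1 with TGF-β1 (TS) and STC-1 alone (STC1) also differed by TGF-β1, and none of those 6 libraries entered the TGF-β1 to PBS contrast other than through the shared estimate of the spread. Of the 469 called genes, 387 (82.5%) changed in the same direction in TS minus STC1, the TGF-β1 effect with STC-1 present, against 56.6% of the 11294 genes that were not called. The share was 84.8% for rises, 80.4% for falls and 94.3% (82 of 87) for stable genes. In the called direction the 469 genes averaged 0.17 on the log2 scale against PBS, the contrast that chose them, and 0.047 in the STC-1 libraries, and the 87 stable genes averaged 0.186 and 0.073. At an unadjusted p under 0.05 in TS against STC1, 138 of the 469 had the same direction and 3 the opposite one. Both contrasts had a negative Spearman correlation with transcript length over 11482 genes, -0.192 against PBS and -0.215 in the STC-1 libraries, whereas the correlation with GC content was -0.156 and 0.196. With the trend removed from every library the share with the same direction was 84.8% of 402 called genes.

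In TS against STC1 itself 35 genes were called (0.298% of 11763). Of these, 16 were among the 469, and all 16 had the same direction. They included the matrix proteases Adamts1 (-0.38 against PBS and -0.17 in the STC-1 libraries, both log2) and Adamts5 (-0.26 and -0.13) and the crosslinking enzyme Lox (-0.23 and -0.19). Among the rises were the glycolytic genes Ldha (0.18 and 0.17), Pgk1 (0.18 and 0.15), Tpi1 (0.18 and 0.13) and Gapdh (0.12 and 0.13). With STC-1 alone, against the same PBS libraries, all of these genes changed in the same direction. The log2 changes were -0.20 for Adamts1, -0.14 for Adamts5 and -0.098 for Lox. For Ldha, Pgk1, Tpi1 and Gapdh they were 0.095, 0.067, 0.097 and 0.038. Whether a change is particular to TGF-β1 was not tested. The difference between the 2 TGF-β1 effects was tested directly as an interaction by edgeR. No gene passed (0%), and 975 genes had an unadjusted p under 0.05, so a difference between the TGF-β1 effect with and without STC-1 was not detectable for single genes at this spread.

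**Figure D2:**
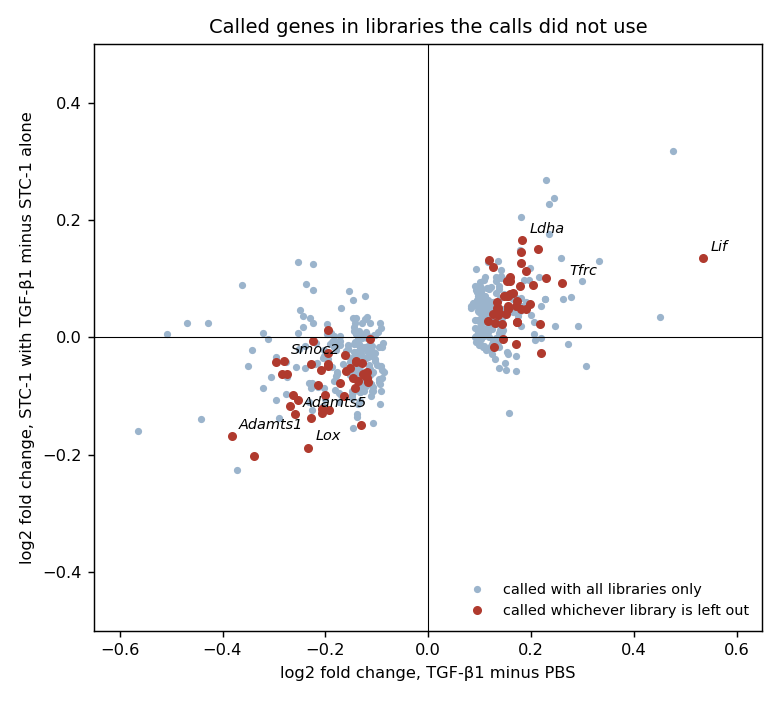
Each point is a called gene, placed by its log2 fold change with TGF-β1 minus PBS on the horizontal axis and with STC-1 and TGF-β1 minus STC-1 alone on the vertical axis; the 2 axes share no library. Red points are the stable genes, blue points the other called genes, and 3 of the 468 genes drawn lie outside the axes. Most points are in the lower left and upper right parts, and the mean in the called direction is 0.047 on the vertical axis and 0.17 on the horizontal one, on which the genes were chosen.

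The genes of the pathway itself were read by list, beside the 3.99% of all genes tested that were called. Of 5 tested TGF-β and activin ligand genes none was called by edgeR, and 1 had an unadjusted p under 0.05 (median log2 change -0.034). DESeq2, which gave an adjusted p to 1 of the 5, did not call that one. The gene of the added protein, Tgfb1, stood at 22.3, 22.9 and 19.002 CPM with PBS and 20.6, 22.4 and 20.04 CPM with TGF-β1. The groups overlapped, and the change of -0.027 ± 0.070 (SE), adjusted p = 0.906 had a 95% interval of -0.17 to 0.11. Tgfb2 stood at 6.88 ± 0.769 CPM with PBS and 5.72 ± 0.606 CPM with TGF-β1 (log2 fold change -0.27, adjusted p = 0.185).

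Of 13 genes that hold the ligand latent or free it, 2 fell and none rose (15.4% called, against 3.99% of all genes tested). Fbn1 encodes fibrillin-1, the microfibril protein that anchors latent TGF-β, and fell by 9.22% (-0.14 ± 0.031 (SE), adjusted p = 0.00369), a stable call that was lost with the length and GC trend removed (0.117). Ltbp2, a latent TGF-β binding protein family member that does not itself bind the ligand, was called at an adjusted p of 0.0497 (-0.16), a call lost in the fits without 1 library other than that without PBS library 3, and with the length and GC trend removed (0.333). The 6 fits without 1 library (PBS 1 to 3, then TGF-β1 1 to 3, the order kept below) called 1, 1, 3, 1, 1 and 1 of the 13. Itgav, an integrin chain that frees latent TGF-β, stood at 241 ± 9.59 CPM with PBS and 227 ± 9.73 CPM with TGF-β1 (adjusted p = 0.0957).

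None of 9 receptor genes and none of 9 SMADs and their partners was called by edgeR, and 1 and 2 of them had an unadjusted p under 0.05. Among all genes tested 3.99% were called, and 9 genes are too few to tell a lower share. DESeq2 gave an adjusted p to 3 of the receptors and 7 of the SMADs and called none of these. The type I receptor gene Tgfbr1 had a log2 change of 0.023 (95% interval -0.072 to 0.12) and the type II receptor gene Tgfbr2 one of -0.053 (-0.12 to 0.017). The signal carriers Smad2, Smad3 and Smad4 had changes of 0.015 (-0.066 to 0.096), -0.010 (-0.099 to 0.078) and -0.029 (-0.10 to 0.043). The receptor median was -0.080 and that of the SMADs -0.017.

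Of 14 feedback inhibitors of the pathway, 1 fell and none rose (7.14% called, against 3.99% of all genes tested, median change 0.025). Smad7, the inhibitory SMAD that SMAD3 itself induces, stood at 9.08, 8.68 and 9.71 CPM with PBS and 9.93, 10.1 and 10.2 CPM with TGF-β1. The groups did not overlap, but the change of 0.14 ± 0.097 (SE), adjusted p = 0.482 did not pass the test. Its log2 change in TS minus STC1 was 0.17. Skil, a nuclear repressor of SMADs, had a change of 0.039 (95% interval -0.055 to 0.13) and Bambi, a decoy receptor, one of 0.17 (adjusted p = 0.321). Ski, a relative of Skil, fell (log2 fold change -0.13, adjusted p = 0.0265); the call was lost without PBS library 1 (0.252), TGF-β1 library 1 (0.0918) or TGF-β1 library 3 (0.147) and with the length and GC trend removed (0.176) and by DESeq2 (0.0581).

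Of 24 genes commonly induced by TGF-β, 2 rose and 1 fell (12.5% called, against 3.99% of all genes tested), with a median of 0.047. The gene with the largest rise of a stable call was in this list. Lif (NCBI Gene 16878, chromosome 11), a secreted cytokine of the IL-6 family that is known as a TGF-β target in fibroblasts, stood at 12.6, 14.3 and 13.4 CPM with PBS and 17.2, 20.8 and 20.5 CPM with TGF-β1. All 3 TGF-β1 libraries were above all PBS libraries, with TGF-β1 library 1 the lowest of them. The log2 change was 0.53 ± 0.079 (SE), adjusted p = 5.71e-06, a fold of 1.45, and in TS minus STC1 it was 0.13 (adjusted p = 0.612).

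Sema7a, a membrane-anchored semaphorin that is a known TGF-β1 target in lung fibrosis, stood at 5.16, 5.3 and 4.21 CPM with PBS and 6.02, 7.48 and 6.94 CPM with TGF-β1. The groups did not overlap, and the change was 0.48 ± 0.12 (SE), adjusted p = 0.015, with the call lost without PBS library 3 (0.0891), TGF-β1 library 2 (0.115) or TGF-β1 library 3 (0.0641). In TS minus STC1 its change was 0.32. Nuak1, a kinase of the AMPK family, fell (log2 fold change -0.22, adjusted p = 0.0199), but its groups overlapped and the call was lost without PBS library 1 (0.195), PBS library 2 (0.117), TGF-β1 library 2 (0.115) or TGF-β1 library 3 (0.114). Ccn2, connective tissue growth factor and a standard TGF-β target, stood at 82.1, 90.99 and 87.8 CPM with PBS and 87.1, 96.2 and 87.3 CPM with TGF-β1, and its change of 0.054 had a 95% interval of -0.029 to 0.14. Leaving out 1 library at a time gave calls in 2, 3, 3, 4, 1 and 1 of the 24.

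The 250 bases before the Lif start (RefSeq, build GRCm38.p6, an earlier build than the GRCm39 of the deposited counts) are shown because this gene had the largest stable rise. Capitals mark a SMAD box (CAGAC) 23 bases before the start and an AP-1 site (TGACTCA) 228 bases before it, each searched on both strands.

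Lif, chr11:4257318-4257567 (+ strand): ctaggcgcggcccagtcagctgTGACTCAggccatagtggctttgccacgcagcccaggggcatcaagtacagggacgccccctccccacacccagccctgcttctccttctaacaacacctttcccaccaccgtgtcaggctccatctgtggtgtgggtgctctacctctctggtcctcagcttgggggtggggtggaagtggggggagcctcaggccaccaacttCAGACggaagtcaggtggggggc

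A SMAD box was in the same window of 45.6% of 9420 tested genes with a listed promoter and of 11 of 18 genes of the TGF-β induced list. An AP-1 site was in 3.81% of the 9420 and in 4 of the 18. These are matches to letters and describe the sequence only.

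The falls included genes of the extracellular matrix. The gene with the smallest p of all was Adamts1 (NCBI Gene 11504, chromosome 16), which encodes a secreted protease that cuts versican and other large proteoglycans. It stood at 312, 289.5 and 301 CPM with PBS and 237, 224 and 232 CPM with TGF-β1. Every TGF-β1 library was below every PBS library, and the change was -0.38 ± 0.031 (SE), adjusted p = 5.66e-13, a fall of 23.3%. With STC-1 present its change was -0.17 (adjusted p = 0.00341). Adamts5, an aggrecan-cutting relative, stood at 236, 238 and 229 CPM with PBS and 195, 196 and 197 CPM with TGF-β1 (-0.26 ± 0.030 (SE), adjusted p = 1.71e-08). Its groups did not overlap either, and in TS minus STC1 it changed by -0.13 (adjusted p = 0.0272). The median of 13 tested ADAMTS genes was -0.21, against -0.0022 over all genes. Of the 13, 3 fell and none rose (23.1% called, against 3.99% of all genes tested). The other was Adamts2, which removes the propeptide of collagen I and fell (log2 fold change -0.16, adjusted p = 0.00467), with the call lost without PBS library 1 (0.085) and with the length and GC trend removed (0.0528). Called members numbered 2, 3, 3, 4, 3 and 3 of the 13 as each library was left out.

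The 250 bases before the Adamts1 start in the same RefSeq build are shown because Adamts1 had the smallest p. Capitals mark a TATA box (TATAAA) 32 bases before the start, which was present in 7.6% of the 9420 promoters, in 20 of 189 genes that rose (10.6%) and in 30 of 198 that fell (15.2%).

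Adamts1, chr16:85803114-85803363 (- strand): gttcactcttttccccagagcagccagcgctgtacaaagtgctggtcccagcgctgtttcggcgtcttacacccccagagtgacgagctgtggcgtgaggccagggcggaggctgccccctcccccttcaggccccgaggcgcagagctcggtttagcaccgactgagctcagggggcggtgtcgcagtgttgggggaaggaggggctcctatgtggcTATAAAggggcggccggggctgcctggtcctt

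Lox encodes lysyl oxidase, the copper enzyme that crosslinks collagen and elastin. It stood at 5287, 5138 and 4854 CPM with PBS and 4272, 4350.5 and 4369 CPM with TGF-β1, the largest loss of any called gene in CPM. All 3 TGF-β1 libraries lay below the PBS libraries, and the change was -0.23 ± 0.027 (SE), adjusted p = 1.71e-08. In the STC-1 libraries it changed by -0.19 (adjusted p = 3.73e-05).

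Lox is also 1 of 12 tested genes of elastic fibres, of which 6 fell and none rose (50% called, against 3.99% of all genes tested). All 12 had a negative change, against 51.1% of all genes tested, and the median was -0.11; in TS minus STC1 all 12 were negative too, with a median of -0.030. Besides Lox and Fbn1 the called members were Efemp1 (log2 fold change -0.11, adjusted p = 0.00752) and Fbln5, fibulins of the elastic fibre, Emilin1 (log2 fold change -0.18, adjusted p = 0.00509), a glycoprotein at the elastin surface, and Loxl1 (log2 fold change -0.11, adjusted p = 0.0188), a lysyl oxidase relative needed for elastin renewal. Of the 6 calls 2 were stable, those of Lox and Fbn1, and Fbln5 lost its call in some fit without a library. The calls were lost for Efemp1 without PBS library 2 (0.0736) or TGF-β1 library 2 (0.0515), for Emilin1 without PBS library 1 (0.0909) or TGF-β1 library 3 (0.0601) and for Loxl1 without PBS library 1 (0.237), PBS library 2 (0.0641) or TGF-β1 library 3 (0.112) and with the length and GC trend removed (0.161). With each library left out in turn, 3, 3, 6, 6, 4 and 3 of the 12 were called, and 4 of the 12 were called with the length and GC trend removed.

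Of 9 tested genes of fibrillar collagens, the rope-like collagens of scar and skin, 3 fell and none rose. The called share was 33.3%, against 3.99% of all genes tested. All 9 had a negative change (median -0.15, and -0.048 in TS minus STC1). Col1a2, the α2 chain of collagen I, stood at 5671, 5374 and 5214 CPM with PBS and 4977, 4951 and 4768 CPM with TGF-β1 (-0.15 ± 0.029 (SE), adjusted p = 0.00184). The groups did not overlap and the call was stable. Col1a1, the partner chain, stood at 2766, 2557 and 2398 CPM with PBS and 2312, 2339 and 2209.6 CPM with TGF-β1. Its groups did not overlap either, but the change of -0.17 ± 0.062 (SE), adjusted p = 0.199 did not pass the test. Fitted with only the compared groups, Col1a1 had an adjusted p of 0.0291. Col3a1, of collagen III, stood at 873, 802 and 809 CPM with PBS and 728, 658 and 664 CPM with TGF-β1 (-0.28 ± 0.057 (SE), adjusted p = 0.0274); the call was lost without PBS library 1 (0.0915), PBS library 3 (0.0512), TGF-β1 library 2 (0.089) or TGF-β1 library 3 (0.111). Col5a2 fell (log2 fold change -0.12, adjusted p = 0.00561), a call lost without PBS library 1 (0.0682), TGF-β1 library 2 (0.058) or TGF-β1 library 3 (0.0514). Of the 9, 1, 3, 3, 3, 1 and 1 were called as the libraries were left out in turn. With the length and GC trend removed the median was -0.083; the median transcript of the list had 6119 bases.

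Of 11 other collagens 5 fell and none rose (45.5% called, against 3.99% of all genes tested, median -0.090). They were the collagen VI chains Col6a1, Col6a2 (log2 fold change -0.15, adjusted p = 3.31e-04) and Col6a3 (log2 fold change -0.099, adjusted p = 0.0329), which build beaded filaments around cells, the basement membrane chain Col4a5 (log2 fold change -0.14, adjusted p = 0.00183) and the fibril-associated Col12a1 (log2 fold change -0.24, adjusted p = 0.00547). Of these calls 2 were stable, those of Col6a2 and Col4a5. Col6a1 (log2 fold change -0.090, adjusted p = 0.0372) lost its call in some fit without a library and with the length and GC trend removed (0.215). The call of Col6a3 was lost without PBS library 1 (0.403), TGF-β1 library 2 (0.0758) or TGF-β1 library 3 (0.215) and with the trend removed (0.58). That of Col12a1 was lost without PBS library 1 (0.0771) or TGF-β1 library 2 (0.0515). Leaving out 1 library at a time gave calls in 2, 5, 6, 4, 2 and 3 of the 11.

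Among 20 enzymes and helpers that process or crosslink collagen, 4 fell and 1 rose (25% called, against 3.99% of all genes tested). The median was -0.085. Pcolce, which speeds the removal of the collagen propeptide, stood at 294 ± 11.6 CPM with PBS and 267 ± 7.52 CPM with TGF-β1 (log2 fold change -0.14, adjusted p = 0.00279), with the call lost without PBS library 1 (0.0886). The other falls were Lox, Loxl1 and Adamts2. The rise was P4ha1, a prolyl hydroxylase subunit that is also a target of hypoxia-inducible factor (log2 fold change 0.092, adjusted p = 0.0497), and that call was lost in every fit without 1 library, without TMM (0.0804), without the low-count filter (0.0515) and with only the compared groups (0.0526). Of the 20, 1, 3, 5, 5, 4 and 3 were called without each library in turn.

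Of 13 matricellular and adhesive glycoprotein genes, 3 fell and 1 rose (30.8% called, against 3.99% of all genes tested, median -0.067). Fn1, fibronectin, the classic matrix product of TGF-β-treated fibroblasts, stood at 6260.5, 5978 and 5779.5 CPM with PBS and 5548, 5561 and 5467 CPM with TGF-β1. The TGF-β1 libraries lay below the PBS libraries (-0.12 ± 0.027 (SE), adjusted p = 0.00429), and the call was lost without PBS library 1 (0.113) and with the length and GC trend removed (0.109). Vcan, versican, fell (log2 fold change -0.13, adjusted p = 8.65e-04) as a stable call, and Thbs2, thrombospondin 2, fell (log2 fold change -0.094, adjusted p = 0.0147) with the call lost without PBS library 1 (0.0958), TGF-β1 library 1 (0.0599) or TGF-β1 library 2 (0.058) and with the length and GC trend removed (0.0507). Spp1, osteopontin, a secreted phosphoprotein, rose, from 609.6, 631 and 642 CPM to 681, 696 and 745 CPM with no overlap (0.17 ± 0.028 (SE), adjusted p = 3.74e-05). In TS minus STC1 the change of Spp1 was 0.026. Called members numbered 2, 4, 4, 6, 3 and 4 of the 13 as each library was left out.

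Of 10 small leucine-rich proteoglycans, which bind collagen fibrils, 2 fell (20% called, against 3.99% of all genes tested), both expressed at a low level. Ogn (osteoglycin) stood at 24.98 ± 1.04 CPM with PBS and 20.2 ± 1.91 CPM with TGF-β1 (log2 fold change -0.31, adjusted p = 0.00369) and Aspn (asporin) at 6.82 ± 0.54 CPM with PBS and 4.92 ± 0.892 CPM with TGF-β1 (log2 fold change -0.47, adjusted p = 0.0231). The calls were lost for Ogn without PBS library 1 (0.0543) or TGF-β1 library 2 (0.0748) and for Aspn without PBS library 2 (0.0624), PBS library 3 (0.0893), TGF-β1 library 1 (0.0613) or TGF-β1 library 2 (0.199). The median of the list was -0.066 and was positive, 0.013, over the members with a mean of at least 50 counts. Of 9 matrix metalloproteases and their inhibitors 2 fell (22.2% called, against 3.99% of all genes tested). They were Mmp14, the membrane-bound collagenase (log2 fold change -0.12, adjusted p = 0.0134), and the inhibitor Timp3 (log2 fold change -0.12, adjusted p = 0.0106). Mmp14 lost its call without PBS library 1 (0.0844) or TGF-β1 library 3 (0.111) and Timp3 without PBS library 2 (0.072) or TGF-β1 library 3 (0.0622). Of 26 genes that make, bind or break hyaluronan and proteoglycan sugars, 1 rose and 2 fell. The called share was 11.5%, against 3.99% of all genes tested. Cd44, the hyaluronan receptor, rose (log2 fold change 0.17, adjusted p = 9.73e-05) and Cemip, a hyaluronan-degrading protein, fell (log2 fold change -0.13, adjusted p = 0.00111), both stable. Cemip was also called in TS against STC1 (-0.15, adjusted p = 0.0013). Ndst2, a heparan sulfate sulfotransferase, fell (log2 fold change -0.22, adjusted p = 0.0385) with overlapping groups, a call that 1 of the 6 fits without 1 library kept and that was lost with the length and GC trend removed (0.0837).

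The standard marker of the myofibroblast fell. Acta2 (NCBI Gene 11475, chromosome 19), α-smooth muscle actin, stood at 391, 386 and 395 CPM with PBS and 371, 337 and 342 CPM with TGF-β1. Each TGF-β1 library was below each PBS library, and the change was -0.16 ± 0.029 (SE), adjusted p = 2.86e-04, a stable call. With STC-1 present it was -0.057 (adjusted p = 0.542). Tagln, transgelin, an actin-binding protein that usually rises with it, stood at 75.3, 71.7 and 76.2 CPM with PBS and 76.2, 68.6 and 70.8 CPM with TGF-β1 and did not pass the test (-0.049 ± 0.041 (SE), adjusted p = 0.587). Of 18 tested contractile genes 1, Acta2, was called (5.56%, against 3.99% of all genes tested). A negative change was seen in 15 (median -0.057, and 0.0086 in TS minus STC1). Cnn2 (calponin 2), Cald1 (caldesmon) and Vcl (vinculin) had changes of -0.097, -0.070 and -0.060 with adjusted p-values of 0.0642, 0.112 and 0.218; Cnn2 passed, among other settings, without TMM (0.0426) and without the low-count filter (0.0367). Of 12 genes of serum response factor and its cofactors, Acta2 was again the 1 called (8.33%, against 3.99% of all genes tested). Srf itself stood at 71.5 ± 0.8 CPM with PBS and 66.9 ± 3.37 CPM with TGF-β1 and its cofactor Mrtfa at 41.003 ± 3.81 CPM with PBS and 36.4 ± 2.49 CPM with TGF-β1 (adjusted p = 0.212 and 0.178); Mrtfa passed without PBS library 3 (0.0207) and without the low-count filter (0.0317).

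**Figure D3:**
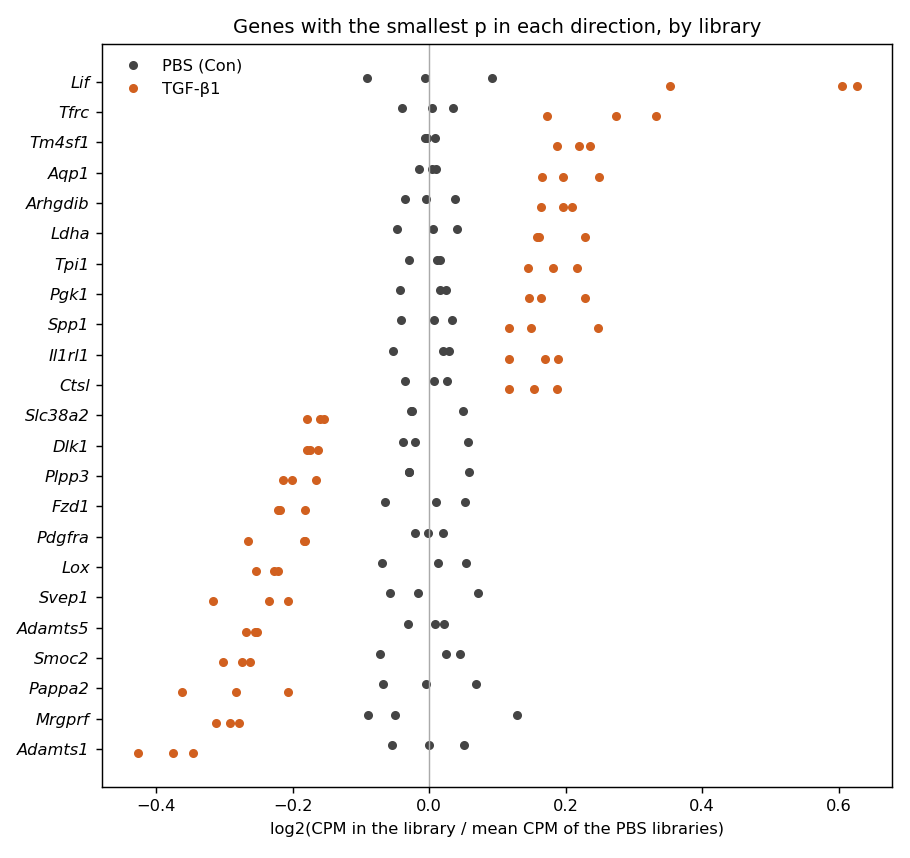
Each row is 1 of the genes with the smallest p among rises (11 genes) and falls (12 genes), and each point is 1 library, placed by log2 of its CPM over the mean CPM of the 3 PBS libraries. In every row the 3 TGF-β1 libraries lie on one side of the 3 PBS libraries, which was a condition of the choice. Lif moves furthest, to between 0.35 and 0.63.

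Besides Adamts1, Lox and Adamts5, the 12 falls with the smallest p were 9 genes of several functions, all stable. All were chosen among calls without overlap. Pdgfra, the PDGF receptor α chain and a surface marker of fibroblasts, stood at 1394, 1354 and 1372 CPM with PBS and 1211, 1142 and 1210.1 CPM with TGF-β1 (-0.21 ± 0.026 (SE), adjusted p = 1.83e-07). In the STC-1 libraries its change was -0.055 (adjusted p = 0.524). The Wnt receptor gene Fzd1 stood at 303, 294 and 279 CPM with PBS and 258, 251 and 251 CPM with TGF-β1 (-0.21 ± 0.030 (SE), adjusted p = 4.85e-06), and in TS minus STC1 at -0.12 (adjusted p = 0.0577). Dlk1, a non-canonical Notch ligand that holds back adipocyte formation, stood at 1198, 1122 and 1136 CPM with PBS and 1029, 1021 and 1017 CPM with TGF-β1 (-0.17 ± 0.027 (SE), adjusted p = 2.03e-05). Smoc2 encodes a secreted calcium-binding matrix protein and stood at 105, 96.9 and 103 CPM with PBS and 84.2, 84.8 and 82.5 CPM with TGF-β1 (-0.28 ± 0.038 (SE), adjusted p = 1.38e-06).

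The other 5 fell by similar shares. Svep1, a large secreted adhesion protein, fell by 16.04% (log2 fold change -0.25, adjusted p = 2.4e-07). Pappa2, a protease that frees insulin-like growth factors from their binding proteins, fell by 17.9% (log2 fold change -0.28, adjusted p = 1.98e-05). Mrgprf, an orphan receptor, fell by 18.6% (log2 fold change -0.30, adjusted p = 9.13e-05). Slc38a2, a transporter of neutral amino acids, fell by 10.8% (log2 fold change -0.16, adjusted p = 4.6e-05). Plpp3, a lipid phosphatase that degrades lysophosphatidic acid, fell by 12.6% (log2 fold change -0.19, adjusted p = 1.17e-04). Their changes in TS minus STC1 were -0.11, -0.062, -0.042, -0.100 and -0.046, all in the same direction and none called there.

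Pdgfra was 1 of 4 falls among 16 growth factor receptors, with no rise (25% called, against 3.99% of all genes tested, median -0.063). Pdgfrb, the β chain, stood at 138 ± 7.57 CPM with PBS and 124 ± 3.58 CPM with TGF-β1 (log2 fold change -0.16, adjusted p = 0.0174), Fgfr2 at 85.2 ± 1.78 CPM with PBS and 76.3 ± 3.84 CPM with TGF-β1 (log2 fold change -0.16, adjusted p = 0.0088) and Igf2r, the mannose-6-phosphate receptor that clears IGF2, at 235 ± 3.02 CPM with PBS and 219 ± 6.29 CPM with TGF-β1 (log2 fold change -0.10, adjusted p = 0.0227). Unlike that of Pdgfra these calls were lost, for Pdgfrb without PBS library 1 (0.196), TGF-β1 library 1 (0.0867) or TGF-β1 library 2 (0.0867) and with the length and GC trend removed (0.0509), for Fgfr2 without TGF-β1 library 1 (0.101) and for Igf2r without PBS library 1 (0.165), PBS library 2 (0.057), TGF-β1 library 1 (0.0513) or TGF-β1 library 2 (0.161) and with the length and GC trend removed (0.282). With each library left out in turn, 2, 3, 6, 1, 2 and 4 of the 16 were called. In the IL-6 family list of 17, Lif rose and the receptor gene Il11ra1 fell (log2 fold change -0.14, adjusted p = 0.0479); the latter call was lost without PBS library 1 (0.206), PBS library 3 (0.161), TGF-β1 library 2 (0.119) or TGF-β1 library 3 (0.209) and with the length and GC trend removed (0.0892) and by DESeq2 (0.107) and with DESeq2 size factors (0.0516) and without the low-count filter (0.0555) and with only the compared groups in the fit (0.0628). Il6, a cytokine of the same family, stood at 6.53 ± 0.85 CPM with PBS and 8.2 ± 0.249 CPM with TGF-β1 and missed the threshold (log2 fold change 0.33, adjusted p = 0.0632). The called share of the IL-6 family list was 11.8%, against 3.99% of all genes tested.

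Of 11 transcription factors linked to the mesenchymal state, Twist2 fell (log2 fold change -0.11, adjusted p = 0.041), a call that each fit without 1 library lost, with adjusted p between 0.057 and 0.195. Snai2, the factor Slug, stood at 21.4 ± 1.77 CPM with PBS and 18.4 ± 0.511 CPM with TGF-β1 (log2 fold change -0.22, adjusted p = 0.0552). Of 20 immediate early genes Fosl1, an AP-1 subunit, rose from 68.6, 67.7 and 68.3 CPM to 75.2, 79.7 and 79.8 CPM, without overlap (0.20 ± 0.040 (SE), adjusted p = 0.00135), and was stable. Among 15 MAP kinase phosphatases and Sprouty genes Dusp6, which switches off ERK, rose from 40.2, 46.9 and 43.2 CPM to 51.1, 49.3 and 51.8 CPM (0.23 ± 0.048 (SE), adjusted p = 0.00238); leaving out PBS library 1 gave an adjusted p of 0.0754. Of 20 tested semaphorins, plexins, neuropilins and their integrin receptor Itga1, 1, Sema7a, was called, and Plxnb2 passed, among other settings, without TMM (0.0315) and without the low-count filter (0.0476). The called share of the mesenchymal factors was 9.09%. Those of the immediate early, phosphatase and semaphorin lists were 5%, 6.67% and 5%, and 3.99% of all genes tested were called.

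The rises with the smallest p, chosen among calls without overlap, were spread over several functions and all stable. Tfrc (NCBI Gene 22042, chromosome 16), the transferrin receptor that brings iron into dividing cells, stood at 166, 174 and 171 CPM with PBS and 192, 206 and 214 CPM with TGF-β1 (0.26 ± 0.032 (SE), adjusted p = 8.49e-08). Tm4sf1, a tetraspanin-like surface protein, stood at 209, 209 and 211 CPM with PBS and 244, 239 and 247 CPM with TGF-β1 (0.21 ± 0.029 (SE), adjusted p = 1.38e-06). The change of Tm4sf1 in TS minus STC1 was 0.15 (adjusted p = 0.00407) and that of Tfrc 0.093 (0.273). Aqp1, a water channel, rose by 15.2% (log2 fold change 0.20, adjusted p = 2.42e-06), and Arhgdib by 14.1% (log2 fold change 0.19, adjusted p = 3.52e-06). Il1rl1, the IL-33 receptor ST2, which serum and oncogenes are known to induce in 3T3 cells, stood at 3551, 3735 and 3758 CPM with PBS and 3994, 4141 and 4196 CPM with TGF-β1 (0.16 ± 0.026 (SE), adjusted p = 4.6e-05). Its gain of 429 CPM was the largest of any called gene. Ctsl, the secreted and lysosomal protease cathepsin L, rose by 11.2% (log2 fold change 0.15, adjusted p = 9.1e-05).

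Part of glycolysis rose. Of 21 tested enzymes and transporters that turn glucose into lactate, 8 rose and none fell (38.1% called, against 3.99% of all genes tested). A positive change was seen in 18, and the median was 0.10. Ldha, lactate dehydrogenase A, stood at 1107, 1149 and 1177 CPM with PBS and 1277, 1279.8 and 1340.3 CPM with TGF-β1 (0.18 ± 0.027 (SE), adjusted p = 5.07e-06). Pgk1, phosphoglycerate kinase, stood at 909, 947 and 953 CPM with PBS and 1049, 1036 and 1098 CPM with TGF-β1 (0.18 ± 0.027 (SE), adjusted p = 8.07e-06). Tpi1, triosephosphate isomerase, stood at 759, 736 and 757 CPM with PBS and 851, 829.7 and 872 CPM with TGF-β1 (0.18 ± 0.026 (SE), adjusted p = 3.52e-06). In each of these 3 genes all TGF-β1 libraries lay above all PBS libraries, a condition of their choice as smallest-p rises. Gapdh, often used as a reference gene, was among the rises, at 4216, 4184 and 4254 CPM with PBS and 4628, 4500.0 and 4612 CPM with TGF-β1 (0.12 ± 0.024 (SE), adjusted p = 0.00183). The other called members were Aldoa, Pgam1, Eno1 and the lactate transporter Slc16a1, of which Aldoa lost its call with the length and GC trend removed (0.0509). Of the 8 calls 5 were stable, those of Ldha, Pgk1, Tpi1, Gapdh and Eno1. Aldoa, Pgam1 and Slc16a1 each lost the call in some fit without a library.

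In TS minus STC1 the glycolysis median was 0.083, 17 of 21 were positive and 8 were called, among them Ldha (0.17, adjusted p = 3.39e-04), Gapdh (0.13, 0.00259), Pgk1 (0.15, 0.00259) and Tpi1 (0.13, 0.00928). Of the 21, 6, 6, 8, 7, 6 and 5 were called as the libraries were left out in turn, and with the length and GC trend removed 11 were called and the median was 0.096. Several of these genes have processed pseudogenes or near-identical copies (Gapdh, Ldha, Pgk1, Tpi1, Aldoa, Eno1), and their values are uncertain where the counting could split reads.

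Of 19 other targets of hypoxia-inducible factor 3 rose and none fell (15.8% called, against 3.99% of all genes tested). The median was 0.052, and 0.031 in TS minus STC1, where 18 of 19 were positive. Mif, a secreted cytokine, stood at 216, 219 and 227 CPM with PBS and 246, 244 and 250.3 CPM with TGF-β1 (0.16 ± 0.029 (SE), adjusted p = 3.31e-04), without overlap and stable. Higd1a, a mitochondrial protein, stood at 24.2, 25.05 and 25.7 CPM with PBS and 30.8, 27.9 and 29.1 CPM with TGF-β1 (0.23 ± 0.059 (SE), adjusted p = 0.0143); the call was lost without PBS library 1 (0.116) or TGF-β1 library 1 (0.0948). Higd1a was called in TS against STC1 (0.27, adjusted p = 0.0144). The other was P4ha1, described above. The fits without 1 library called 1, 2, 4, 1, 2 and 2 of the 19.

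The promoters of Ldha and Pgk1 are shown because they are textbook targets of hypoxia-inducible factor and rose in both contrasts. Capitals mark the core of the hypoxia response element (ACGTG on either strand, which also lies inside the E-box CACGTG). The upstream of the 2 Ldha starts in the table is shown; the window of the other holds no match.

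Ldha, chr7:46845554-46845803 (+ strand): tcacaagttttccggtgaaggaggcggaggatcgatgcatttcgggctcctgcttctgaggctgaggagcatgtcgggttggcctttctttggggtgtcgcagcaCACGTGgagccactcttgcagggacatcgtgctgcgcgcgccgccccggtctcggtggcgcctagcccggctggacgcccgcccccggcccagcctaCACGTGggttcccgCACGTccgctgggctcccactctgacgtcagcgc
Pgk1, chrX:106186850-106187099 (+ strand): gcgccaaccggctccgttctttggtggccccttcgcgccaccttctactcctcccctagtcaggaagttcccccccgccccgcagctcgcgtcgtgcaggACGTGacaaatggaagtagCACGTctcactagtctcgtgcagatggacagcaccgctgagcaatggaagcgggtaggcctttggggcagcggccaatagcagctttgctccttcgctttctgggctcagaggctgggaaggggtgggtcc

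The core was in the 250 bases before the start of 10 of 21 tested glycolysis genes (47.6%), against 25.4% of the 9420 promoters and 43 of 189 genes that rose (22.8%).

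Some genes of cell growth and division rose, in small steps. Of 34 ribosome biogenesis genes, whose products process ribosomal RNA in the nucleolus, 11 rose and none fell. The called share was 32.4%, against 3.99% of all genes tested. A positive change was seen in 33, and the median was 0.090. Ncl, nucleolin, stood at 1686, 1747 and 1775 CPM with PBS and 1925, 1925 and 1985 CPM with TGF-β1 (0.16 ± 0.029 (SE), adjusted p = 4.11e-04). Npm1, nucleophosmin, stood at 1974, 2015 and 2048 CPM with PBS and 2212, 2163 and 2247 CPM with TGF-β1 (0.13 ± 0.025 (SE), adjusted p = 7.27e-04). Nop56, a core protein of box C/D ribonucleoproteins, stood at 339, 354 and 358 CPM with PBS and 389, 393 and 391 CPM with TGF-β1 (0.16 ± 0.028 (SE), adjusted p = 1.6e-04). These 3 calls were stable and their groups did not overlap. Ddx21, an RNA helicase, rose (log2 fold change 0.12, adjusted p = 0.00476), a call lost without TGF-β1 library 3 (0.0724). With STC-1 present the median was 0.045, with 30 of 34 positive and none called. Leaving out 1 library at a time gave calls in 5, 9, 10, 10, 7 and 4 of the 34, and 12 were called with the length and GC trend removed.

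Of 43 cytosolic ribosomal protein genes, 8 rose and none fell (18.6% called, against 3.99% of all genes tested, median 0.065). Rps7 stood at 1321 ± 10.3 CPM with PBS and 1431 ± 15.7 CPM with TGF-β1 (log2 fold change 0.12, adjusted p = 0.00236) and Rpl7 at 1892 ± 72.4 CPM with PBS and 2038 ± 52.4 CPM with TGF-β1 (log2 fold change 0.11, adjusted p = 0.00998). Their transcripts are short, with a median of 946 bases, and with the length and GC trend removed none was called and the median was 0.033; in the edgeR fit without that step 29 of the 43 had an unadjusted p under 0.05, and DESeq2 called 9. In the STC-1 libraries all 43 were positive (median 0.053). Called members numbered 3, 2, 15, 3, 5 and 3 of the 43 as each library was left out, most of them (15) without PBS library 3. Many of these genes have processed pseudogenes, which makes single values uncertain.

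Of 78 mitochondrial ribosomal protein genes 1 rose and none fell, a called share of 1.28%, below the 3.99% of all genes tested. The list median was 0.050, and 0.024 with the length and GC trend removed. The rise was Mrpl34, at 11.7 ± 0.741 CPM with PBS and 14.5 ± 1.37 CPM with TGF-β1 (log2 fold change 0.31, adjusted p = 0.0234). Its call was lost without PBS library 1 (0.196) or TGF-β1 library 1 (0.19). Of 74 nuclear genes of the respiratory chain 4 rose and none fell, 66 had a positive change, and the median was 0.043. The called share of 5.41% was near the 3.99% of all genes tested. Cycs, cytochrome c, was the stable one (log2 fold change 0.14, adjusted p = 0.00505). Cox7a2 (log2 fold change 0.18, adjusted p = 0.00815) and Cox7b (log2 fold change 0.12, adjusted p = 0.0228) are subunits of complex IV and Sdhd (log2 fold change 0.13, adjusted p = 0.0236) is one of complex II; the calls were lost for Cox7a2 without PBS library 1 (0.138) or TGF-β1 library 2 (0.116) and with the length and GC trend removed (0.0651), for Cox7b without PBS library 1 (0.177), TGF-β1 library 1 (0.0912) or TGF-β1 library 3 (0.162) and with the length and GC trend removed (0.25) and for Sdhd without PBS library 1 (0.233), PBS library 2 (0.0646) or TGF-β1 library 3 (0.201) and with the length and GC trend removed (0.137). These transcripts too are short (median 936 bases), and the median was 0.0084 with the trend removed; 1, 3, 5, 3, 3 and 2 of the 74 were called as each library was left out. Of 31 proteasome subunits Psma2 (log2 fold change 0.11, adjusted p = 0.0338) and Psmd14 (log2 fold change 0.12, adjusted p = 0.021) rose, and 30 of 31 had a positive change (median 0.069). These calls were 6.45% of the list, against 3.99% of all genes tested. Neither call held with the trend removed, when no subunit was called, and as each library was left out 0, 0, 5, 3, 0 and 0 of the 31 were called.

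Of 39 DNA replication genes 4 rose and none fell (10.3% called, against 3.99% of all genes tested). There were 36 positive changes, with a median of 0.082. Cdc6, which loads the replicative helicase onto origins, stood at 51.6, 50.2 and 54.96 CPM with PBS and 61.04, 60.6 and 60.7 CPM with TGF-β1 (0.22 ± 0.044 (SE), adjusted p = 0.0015), without overlap and stable. The helicase subunits Mcm3 (log2 fold change 0.13, adjusted p = 0.00476), Mcm7 (log2 fold change 0.13, adjusted p = 0.00507) and Mcm2 (log2 fold change 0.10, adjusted p = 0.022) rose too, with the calls lost for Mcm3 without TGF-β1 library 3 (0.062), for Mcm7 without TGF-β1 library 3 (0.0636) and for Mcm2 without PBS library 1 (0.14), PBS library 2 (0.0506), TGF-β1 library 2 (0.112) or TGF-β1 library 3 (0.112). As the libraries were left out in turn, 3, 3, 6, 5, 3 and 1 of the 39 were called. In TS minus STC1 the median was 0.017, 23 of 39 were positive, and Cdc6 changed by 0.022 and Mcm3 by -0.0040.

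Of 32 mitosis genes 5 rose and none fell (15.6% called, against 3.99% of all genes tested), with 30 positive (median 0.057). They were Bub3 (log2 fold change 0.13, adjusted p = 0.0071) and Mad2l1 of the spindle checkpoint, Ccnb1, cyclin B1 (log2 fold change 0.10, adjusted p = 0.0286), the kinetochore protein Cenpf (log2 fold change 0.11, adjusted p = 0.0247) and the spindle midzone protein Prc1 (log2 fold change 0.12, adjusted p = 0.00827). None was stable. The calls were lost for Bub3 without TGF-β1 library 3 (0.0647), for Ccnb1 without PBS library 1 (0.129), PBS library 2 (0.0738) or TGF-β1 library 3 (0.179) and with the length and GC trend removed (0.109), for Cenpf without PBS library 1 (0.268), TGF-β1 library 1 (0.0557), TGF-β1 library 2 (0.0962) or TGF-β1 library 3 (0.0653) and for Prc1 without PBS library 1 (0.0983) or TGF-β1 library 2 (0.0689). Of the 32, 1, 3, 5, 4, 2 and 1 were called as the libraries were left out in turn. With STC-1 present 16 of 32 were positive (median 0.0066). Among 18 CDK inhibitors, CDKs and cyclins of G1 none was called by edgeR, and 4 had an unadjusted p under 0.05; DESeq2 called none of the 13 to which it gave an adjusted p. Ccnd1, cyclin D1, stood at 292 ± 10.6 CPM with PBS and 308 ± 10.1 CPM with TGF-β1 (log2 fold change 0.078, adjusted p = 0.13) and Cdk4 at 535 ± 1.49 CPM with PBS and 559 ± 8.59 CPM with TGF-β1 (log2 fold change 0.063, adjusted p = 0.194).

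Part of the cholesterol pathway fell. All 24 tested genes of cholesterol synthesis and uptake had a negative change, and the median was -0.085. Of the 24, 7 fell and none rose (29.2% called, against 3.99% of all genes tested). Mvk, mevalonate kinase, an early enzyme, stood at 77.2, 72.6 and 78.5 CPM with PBS and 70.03, 66.3 and 66.5 CPM with TGF-β1 (-0.17 ± 0.040 (SE), adjusted p = 0.00711). The groups did not overlap, and the call was lost without PBS library 1 (0.0626), TGF-β1 library 2 (0.0555) or TGF-β1 library 3 (0.0531). Lss, which closes the sterol rings, stood at 165 ± 4.74 CPM with PBS and 146 ± 10.7 CPM with TGF-β1 (log2 fold change -0.18, adjusted p = 0.00569), Mvd, which makes isopentenyl diphosphate, at 69.2 ± 1.81 CPM with PBS and 58.8 ± 2.76 CPM with TGF-β1 (log2 fold change -0.23, adjusted p = 0.0106), and Hsd17b7, a late reductase, at 109 ± 2.69 CPM with PBS and 99.7 ± 3.06 CPM with TGF-β1 (log2 fold change -0.13, adjusted p = 0.0235). Cyp51 and Msmo1, demethylases of the ring, and Srebf2, the transcription factor of the pathway, were the other calls. None of the 7 was stable. The call was lost for Srebf2 with the length and GC trend removed (0.424), for Lss without PBS library 1 (0.0797) or TGF-β1 library 2 (0.0515), for Mvd without PBS library 1 (0.0842), PBS library 2 (0.0534), TGF-β1 library 2 (0.0515) or TGF-β1 library 3 (0.0622) and for Hsd17b7 without PBS library 2 (0.118), PBS library 3 (0.0611), TGF-β1 library 2 (0.163) or TGF-β1 library 3 (0.0616). With each library left out in turn, 1, 3, 5, 10, 0 and 1 of the 24 were called, with none left without TGF-β1 library 2, and 9 were called with the length and GC trend removed (median -0.093). In the STC-1 libraries 20 of 24 were negative (median -0.052) and none was called.

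The promoters of Mvk and Hsd17b7 are shown as examples from this list, in which every tested gene had a negative change. They were not picked by rank of p, and neither call was stable. Capitals mark CCAAT on either strand (ATTGG on the other). NF-Y, the factor that binds this box, is known to act with SREBP at sterol genes.

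Mvk, chr5:114444019-114444268 (+ strand): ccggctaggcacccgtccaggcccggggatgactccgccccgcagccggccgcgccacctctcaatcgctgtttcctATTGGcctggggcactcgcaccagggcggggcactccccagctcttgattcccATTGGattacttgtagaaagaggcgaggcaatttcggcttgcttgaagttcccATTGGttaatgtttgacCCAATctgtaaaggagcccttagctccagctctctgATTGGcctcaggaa
Hsd17b7, chr1:169969206-169969455 (- strand): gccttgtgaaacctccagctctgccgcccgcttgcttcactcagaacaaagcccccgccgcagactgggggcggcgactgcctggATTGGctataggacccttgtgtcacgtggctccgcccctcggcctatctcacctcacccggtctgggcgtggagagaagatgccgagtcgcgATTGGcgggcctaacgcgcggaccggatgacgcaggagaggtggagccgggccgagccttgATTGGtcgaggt

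CCAAT was in the window of 16 of 17 cholesterol genes with a listed promoter, against 42% of the 9420. The sterol regulatory element searched as TCACNCCAC was in 1 of the 17 and in 1.15% of the 9420.

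Of 21 fatty acid synthesis genes 1 fell, Acly, which makes cytosolic acetyl-CoA for both lipid pathways, at 546, 544 and 564 CPM with PBS and 513, 496 and 505 CPM with TGF-β1 (-0.13 ± 0.026 (SE), adjusted p = 0.00215), a stable call. The called share was 4.76%, against 3.99% of all genes tested, and 16 of 21 changes were negative (median -0.055). Fads1 and Fads3, desaturases, stood at 327 ± 15.3 CPM with PBS and 307 ± 3.38 CPM with TGF-β1 and 35.8 ± 1.41 CPM with PBS and 31.5 ± 2.26 CPM with TGF-β1 (adjusted p = 0.0703 and 0.0518).

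**Figure D4:**
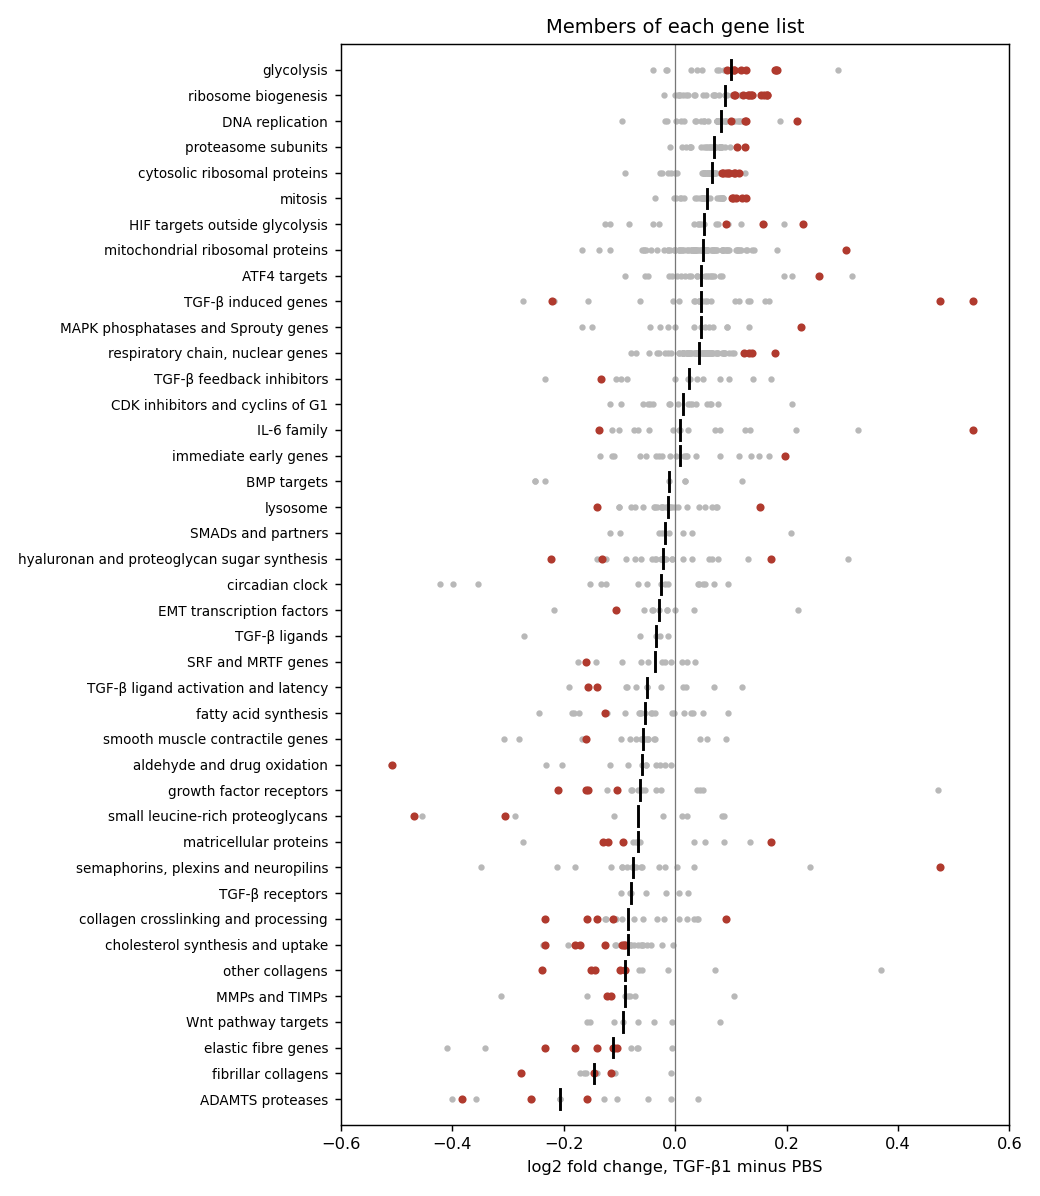
Each row is a gene list, each point a tested member placed by its log2 fold change with TGF-β1 minus PBS; red points are called members, grey points the others, and black bars the list medians, by which the rows are ordered. Glycolysis (median 0.10) and ribosome biogenesis (0.09) lie at the top and fibrillar collagens (-0.15) and ADAMTS proteases (-0.21) at the bottom; 4 points lie outside the axes.

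In the remaining lists the called share was 4% for ATF4 targets, 7.14% for lysosome genes and 7.69% for aldehyde and drug oxidation genes. Among all genes tested 3.99% were called. Of 25 ATF4 targets Cth, an enzyme of cysteine synthesis, rose (log2 fold change 0.26, adjusted p = 0.0188), a call lost without PBS library 1 (0.218) or TGF-β1 library 2 (0.172); Asns, asparagine synthetase, stood at 391 ± 13.99 CPM with PBS and 414 ± 4.44 CPM with TGF-β1 (adjusted p = 0.0817). Of 28 lysosome genes 1 rose and 1 fell, and the rise was Ctsl, described above. Of 13 aldehyde and drug oxidation genes Aox3, an aldehyde oxidase, fell at a low level, from 4.62, 5.53 and 5.38 CPM to 3.62, 3.57 and 3.7 CPM (-0.51 ± 0.14 (SE), adjusted p = 0.0188), with the call lost without PBS library 2 (0.0865), PBS library 3 (0.0555), TGF-β1 library 2 (0.0736) or TGF-β1 library 3 (0.0609). In TS minus STC1 the change of Aox3 was 0.0052. No member was called by edgeR among 17 circadian clock genes, 9 Wnt pathway targets and 7 BMP targets, of which 2, 3 and 2 had an unadjusted p under 0.05. DESeq2 gave an adjusted p to 4, 1 and 2 of them and called none of these. Id2, a BMP target, stood at 15.5 ± 0.673 CPM with PBS and 13.04 ± 0.468 CPM with TGF-β1 (log2 fold change -0.25, adjusted p = 0.0655), and Per1, a clock gene, at 79.4 ± 3.02 CPM with PBS and 72.9 ± 2.54 CPM with TGF-β1 (log2 fold change -0.12, adjusted p = 0.0631). Per1 passed, among other settings, without TMM (0.0426), and Hlf, another clock gene, without the low-count filter (6.67e-05) and with only the compared groups in the fit (0.00345).

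In CPM the changes were largest for genes with many counts. CPM is not corrected for transcript length, so a rank across genes by CPM depends on length as well. The called rises gained 7239 CPM in all and the called falls lost 5833 CPM. The 6 largest losses were Lox (-762 CPM), Col1a2 (-521), Fn1 (-481), Pdgfra (-186), Thbs2 (-150.0) and Col3a1 (-145). The 6 largest gains were Il1rl1 (429 CPM), Gapdh (362), Ncl (209), Hspa8 (196), Npm1 (195) and Ldha (154). Hspa8 encodes a constitutive heat shock protein and rose (log2 fold change 0.10, adjusted p = 0.0106), with the call lost without PBS library 1 (0.0676) or TGF-β1 library 3 (0.112). CPM values scaled with TMM do not sum to exactly the same total in each library. The TMM factors were 1.0026 to 1.0064 with PBS and 0.9964 to 0.9998 with TGF-β1. Summed gains and losses therefore depend on the scaling, and a gain in some genes and a loss in others are not independent.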

How the data were processed

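RNA was extracted with TRIzol and poly-A libraries were made with the MGIEasy kit, per the labels' protocols. What the authors deposited are expected counts per gene, estimates that can hold fractions; this unit was read from the values. The build is GRCm39 per the submitters' processing notes. The aligner, the counting program and any use of strand are not given in the sources used here, so overlapping and antisense genes and genes with near-identical copies are uncertain. NCBI Gene numbers were matched to symbols for 16177 of 16300 genes. Promoters are from RefSeq on GRCm38.p6, matched by gene number for 9420 tested genes.

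Counts were rounded, filtered with filterByExpr, scaled by TMM and fitted with edgeR 4.0.16 in R 4.3.3 (robust quasi-likelihood, two-sided), with all 12 libraries and 1 mean per group (8 residual degrees of freedom). The Benjamini-Hochberg adjustment ran over 11763 genes. The median biological coefficient of variation was 2.22%. The steps were tested on simulated data. No replicate pair was treated as a duplicate, since chi-square per degree of freedom was 1.46 or more.

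The members and the gene lists were chosen with earlier results of these data known, and some genes stand in several lists, such as Lox, Fbn1, Acta2, Lif and P4ha1. Genes were named by rule: the 12 smallest p each way among calls without overlap and with a mean count of 50 or more in the higher group; the 6 largest gains and 6 largest losses in CPM; up to 4 members of each list with the smallest p; and 18 fixed genes. Predicted genes were left out, and some further genes are not reported here. Alternatives were DESeq2 1.42.0, other scalings and filters, only the compared groups, the replicate block, and leaving out each library. Removing each library's trend with transcript length and GC content was added after seeing the data.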

Additional observations from a re-analysis of the deposited data

How the results depend on the processing

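Under DESeq2, which gave an adjusted p to 5377 genes, 331 genes were called; the falls numbered 150 instead of 245, and 86.7% of the calls had the same direction in TS minus STC1. Leaving out 1 library in turn gave 143 to 544 calls, 76 to 282 rises and 67 to 262 falls, and a same-direction share of 82.0% to 88.8%. Between them the other edgeR settings called 402 to 545 genes, except the fit with the replicate number as a block, which called 656 (315 rose, 341 fell). The labels do not say that a number marks a shared day or batch. The deviations of PBS and TGF-β1 samples with the same number had correlations of 0.0994, 0.0831 and 0.112 over 6154 genes. Whether they share a day or batch was not tested, and the block lost none of 95 named calls. No named call changed direction in any setting run. Of these 95 calls, 40 were lost without PBS library 1, 20 and 9 without PBS libraries 2 and 3, 16, 30 and 32 without TGF-β1 libraries 1, 2 and 3, and 22 with the length and GC trend removed. The other settings lost 0 to 4 each, where DESeq2 gave an adjusted p to 86 of the 95 and lost 4 of those. List medians changed sign in some setting for the IL-6, immediate early, proteoglycan, circadian, BMP and G1 lists, all of which lay within 0.07 of 0. The cause was not tested. The depth and 3 libraries a group limit what can be seen of low genes such as Smad7.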

Other observations

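Among the stable calls that the rule for named genes did not reach, several stood in known groups; they are named here after their values were seen, and no list was tested. The 2 cell surface co-receptors of Hedgehog signalling that were stable both fell, Gas1 from 501 ± 22.6 CPM with PBS to 438 ± 20.6 CPM with TGF-β1 and Cdon from 67.3 ± 2.4 CPM with PBS to 57.5 ± 0.0881 CPM with TGF-β1. Their log2 changes were -0.19 and -0.23, and in TS minus STC1 -0.12 and -0.14. Other falls were the basement membrane gene Nid2 (-0.27 against PBS and -0.12 with STC-1 present), the membrane-anchored metalloprotease inhibitor Reck (-0.26 against PBS and -0.098 with STC-1 present), the heparan sulfate proteoglycan Gpc4 (-0.20 against PBS and -0.098 with STC-1 present), the guidance protein Slit2 (-0.14 against PBS and -0.074 with STC-1 present), the adhesion molecule Cdh11 (-0.12 against PBS and -0.059 with STC-1 present) and the growth factor Ptn (-0.22 against PBS and -0.0067 with STC-1 present). Pdk4, a kinase that keeps pyruvate out of the mitochondrial citrate cycle, fell (-0.21 against PBS and -0.13 with STC-1 present).

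The stable rises held the high mobility group genes Hmga2, from 461 ± 11.9 CPM with PBS to 511 ± 22.4 CPM with TGF-β1, and Hmga1 (0.13 against PBS and 0.040 with STC-1 present), chromatin proteins of growing and embryonic cells. Chaperones and tubulin genes were among them as well, with Hsp90aa1 (0.15 against PBS and 0.054 with STC-1 present), Cct6a (0.13 against PBS and 0.050 with STC-1 present), the tubulin folding cofactor Tbca (0.17 against PBS and 0.062 with STC-1 present, a call lost with the length and GC trend removed, adjusted p = 0.122), Tuba1c (0.13 against PBS and 0.025 with STC-1 present) and Tubb6 (0.14 against PBS and 0.038 with STC-1 present). Odc1, the first enzyme of polyamine synthesis, rose (0.13 against PBS and -0.017 with STC-1 present), and so did Nasp, a histone chaperone (0.15 against PBS and 0.048 with STC-1 present), and the exonuclease gene Exo1 (0.22 against PBS and -0.027 with STC-1 present). Odc1 and Exo1 had the opposite sign in the STC-1 libraries.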
